A study of Mus musculus with 8 samples.

Results

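The 10 genes described here charge mannose for protein glycosylation or make dolichol, the lipid that carries it. They are Mpi, Pmm1, Pmm2, Gmppa, Gmppb and Dpm1 for mannose, and Dhdds, Nus1, Srd5a3 and Dolk for dolichol. They were read from the deposited liver count table as the rows whose Ensembl identifiers map to these symbols, 10 of 46078 genes. The other 9 were listed for their place in the pathway, but Pmm1 was chosen by its measured value, its lower level in the knockout livers of this same comparison. Its genotype difference is therefore given as a description without a test. The study compared poly(A) RNA from livers of 5 wild-type mice (WT) and 3 mice with Rbfox2 knockout (Rbfox2 KO), an RNA-binding protein that controls alternative splicing. All 8 mice drank water with 30% (w/v) fructose for 22 weeks beside a control chow, and were fasted before the livers were taken. According to the study's methods both genotypes carried Rbfox2 alleles flanked by loxP sites, the knockout mice also carried Cre driven by the albumin promoter, and mice were male unless stated otherwise. The mice were young adults, 8 weeks old, when the diet began. The albumin promoter is active in hepatocytes, so this model is not designed to delete Rbfox2 in other liver cells, and Rbfox2 was not measured by cell type here.

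Mannose enters glycosylation as mannose 6-phosphate, made by Mpi from fructose 6-phosphate or taken from free mannose. A phosphomannomutase, Pmm1 or Pmm2, turns it into mannose 1-phosphate, Gmppb joins this to GDP while Gmppa holds the enzyme in check, and Dpm1 moves mannose from GDP to dolichol phosphate. Dolichol branches from the mevalonate pathway at farnesyl pyrophosphate: Dhdds and Nus1 together lengthen the chain, Srd5a3 acts in the reduction that yields dolichol, and Dolk phosphorylates it. The liver secretes most glycoproteins of plasma, and inherited loss of PMM2 causes the most frequent congenital disorder of N-glycosylation in humans.

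Total counts were 24829693 to 37823155 per library, and all 10 genes were among the 14654 that passed the filter on low counts. Levels are CPM, the counts scaled to a common library size, with factors from the trimmed mean of M-values (TMM) that ran from 0.821 in WT 3 to 1.29 in Rbfox2 KO 1. A level of 3 counts equalled 0.0839 to 0.118 CPM. The deleted gene, Rbfox2, was at 13.96 to 23.2 CPM in WT and 6.84 to 12.4 CPM in Rbfox2 KO livers, with a log2 fold change of -1.03 ± 0.21 (SE). Its edgeR adjusted p was 0.328 and its DESeq2 adjusted p 0.0019. The 6 hepatocyte markers, albumin among them, summed to 71616 to 78418 CPM in WT and 63654 to 78031 CPM in Rbfox2 KO. The 12 pancreatic acinar markers summed to 464 CPM in Rbfox2 KO 1, to 17.1 CPM in WT 1 and to 4.78 to 5.94 CPM in the other 6 libraries, with 8 of the 12 at 0 counts in both Rbfox2 KO 2 and 3. The 8 skeletal muscle markers summed to 191 CPM in Rbfox2 KO 1, 224 in WT 4, 320 in WT 5 and 1.14 to 40.0 in the rest. Summed markers of the other liver cells overlapped between groups: 20.5 to 32.2 CPM in WT and 24.9 to 31.8 CPM in the knockout for 5 cholangiocyte genes, 168 to 189 and 171 to 225 CPM for 5 Kupffer cell genes, 126 to 145 and 122 to 145 CPM for 6 endothelial genes. The ranges were 145 to 195 and 136 to 227 CPM for 6 stellate cell genes and 6.89 to 18.9 and 6.999 to 11.99 CPM for 5 lymphocyte genes. The largest gene weighs most in a sum, as Spp1 (22.9 CPM in WT) for cholangiocytes and Dcn (114 CPM) for stellate cells. Taken singly, all 5 cholangiocyte and 4 of the 5 Kupffer cell genes had higher means in the knockout (median log2 fold changes 0.46 and 0.19). The groups overlapped in each of these genes. Krt7 and Krt19 had only 5 to 24 and 6 to 38 reads per library. Krt7, Krt19 and Sox9 were highest in Rbfox2 KO 1, the library with most pancreatic transcripts, and Epcam and Spp1 in WT 1. Of the 5 lymphocyte genes, 4 were lower (median -0.33), and the endothelial and stellate genes had 3 lower and 3 higher each. Col1a1 was at 10.5, 1.38 and 1.73 CPM in Rbfox2 KO 1 to 3 and 1.33 to 2.62 CPM in WT. The part of these differences between libraries in the results was not tested. These libraries hold whole liver, so fewer cells of a type and less RNA per cell cannot be told apart.

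The promoters of the phosphomannomutase pair, of Dolk, the dolichol gene with the largest difference between genotypes, and of Hmgcs1, a mevalonate gene shown for contrast, are printed because the results turn on these genes. Each is the RefSeq window of GRCm38.p6 from 250 bases before to 50 bases after the transcription start, read 5′ to 3′ on the gene's strand. Pmm1 lies at chr15:81960881-81961180 (minus strand), Pmm2 at chr16:8637457-8637756 (plus), Dolk at chr2:30286305-30286604 (minus) and Hmgcs1 at chr13:119690101-119690400 (plus). Capitals mark matches on either strand to 4 motifs: CACCCCAC, the core of a sterol regulatory element, CCAAT, the CCAAT box, GGGCGG, the GC box, and CACGTG, the E-box.
Pmm1: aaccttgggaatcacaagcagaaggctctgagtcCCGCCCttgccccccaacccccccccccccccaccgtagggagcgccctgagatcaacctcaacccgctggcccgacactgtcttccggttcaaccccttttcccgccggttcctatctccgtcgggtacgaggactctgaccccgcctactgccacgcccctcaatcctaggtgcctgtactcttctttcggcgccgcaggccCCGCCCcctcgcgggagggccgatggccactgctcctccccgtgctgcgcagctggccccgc
Pmm2: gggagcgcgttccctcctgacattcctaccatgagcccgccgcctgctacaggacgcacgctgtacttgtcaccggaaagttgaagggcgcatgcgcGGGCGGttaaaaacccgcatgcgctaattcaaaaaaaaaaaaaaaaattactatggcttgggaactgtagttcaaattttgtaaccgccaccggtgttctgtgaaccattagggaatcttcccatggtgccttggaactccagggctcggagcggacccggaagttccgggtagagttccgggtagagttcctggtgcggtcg
Dolk: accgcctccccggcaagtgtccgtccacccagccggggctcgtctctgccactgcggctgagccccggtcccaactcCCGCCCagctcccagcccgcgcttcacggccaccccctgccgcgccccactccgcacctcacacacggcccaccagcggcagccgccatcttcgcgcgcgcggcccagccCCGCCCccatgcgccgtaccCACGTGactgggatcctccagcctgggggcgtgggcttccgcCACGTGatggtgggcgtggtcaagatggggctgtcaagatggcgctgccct
Hmgcs1: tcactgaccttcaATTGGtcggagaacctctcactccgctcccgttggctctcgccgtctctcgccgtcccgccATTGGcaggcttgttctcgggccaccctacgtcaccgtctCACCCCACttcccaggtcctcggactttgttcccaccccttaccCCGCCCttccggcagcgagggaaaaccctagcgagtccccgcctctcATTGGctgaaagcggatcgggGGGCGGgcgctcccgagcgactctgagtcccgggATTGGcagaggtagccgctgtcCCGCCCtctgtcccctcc

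The phosphomannomutase windows share the GC box, with 2 matches in Pmm1 and 1 in Pmm2, and Pmm1 is the richer in G and C (68.0% against 54.0%). Dolk holds 2 GC boxes and 2 E-boxes. The Hmgcs1 window holds 1 sterol element core, 4 CCAAT boxes and 3 GC boxes. Of the 5 mevalonate genes with a window in the table, Hmgcs1 was the 1 with that core. A window was found for 9 of the 10 genes, all but Gmppb. The sterol element core was in 0 of these 9, against 2.87% of all 32851 windows in the RefSeq table. The CCAAT box was in 4 of them (Gmppa, Dpm1, Dhdds and Nus1) against 37.4% of all windows, the GC box in 6 against 35.7%, and the E-box in 3, all of them dolichol genes (Dhdds, Srd5a3 and Dolk), against 7.15%. None of these matches overlapped another, and a match describes the letters only.

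Pmm1 (ENSMUSG00000022474), on the minus strand of chromosome 15 from 81951108 to 81960930 (GRCm38), was at 7.83, 5.79, 6.15, 6.26 and 5.56 CPM in WT 1 to 5. In Rbfox2 KO 1 to 3 it was at 3.01, 3.97 and 3.19 CPM. All 3 knockout livers lay below all 5 WT livers, and WT 1 stood highest. The means were 6.32 ± 0.891 CPM (SD, n = 5) and 3.39 ± 0.511 CPM (SD, n = 3), so that the knockout livers held 53.7% of the WT level. The log2 fold change was -0.90 ± 0.16 (SE). It stayed between -0.96 and -0.80 under the other scalings, filters and models tried, and between -1.03 and -0.82 when any 1 library was left out; without Rbfox2 KO 1, the library with pancreatic transcripts, it was -0.83. These values rest on 175 to 212 reads in each WT library and on 96, 101 and 114 reads in the knockout libraries. Every run used the libraries in which Pmm1 was chosen, so none tests its difference.

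Pmm2 (ENSMUSG00000022711, chromosome 16, 8637674 to 8662467, plus strand), the other phosphomannomutase, was at 32.8, 32.8, 33.0, 32.7 and 27.6 CPM in WT 1 to 5 and at 30.1, 30.9 and 32.0 CPM in Rbfox2 KO 1 to 3. The knockout livers fell inside the WT range, which WT 5 alone extended downwards. The means were 31.8 ± 2.33 CPM (SD, n = 5) and 31.0 ± 0.960 CPM (SD, n = 3). The log2 fold change of Pmm2 was -0.04 ± 0.09 (SE), with a 95% interval of the fold from 0.849 to 1.12 and an edgeR adjusted p of 0.99997. No 50-base stretch of the principal transcripts of Pmm1 or Pmm2 had an exact match in another annotated gene. Exact reads of that length from these transcripts thus tell the pair apart. Other transcripts of the pair and inexact matches were not searched.

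**Figure D1:**
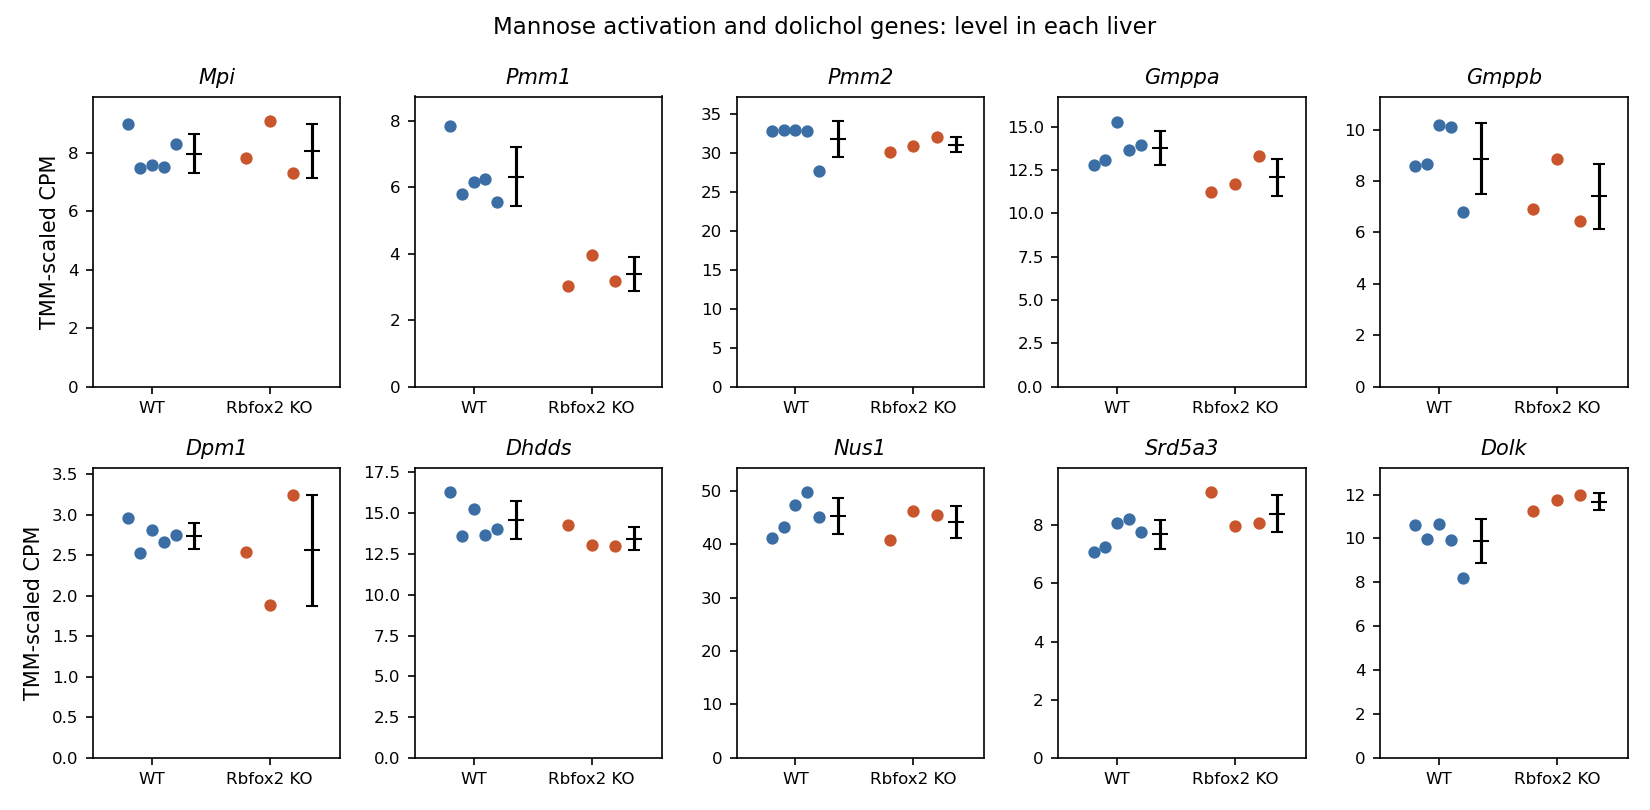
TMM-scaled CPM (vertical axes, from 0) of each of the 10 genes in each liver, with WT 1 to 5 in blue, Rbfox2 KO 1 to 3 in orange, and the mean ± SD in black at the right of each group. Pmm1 is the one panel whose knockout points (3.01 to 3.97 CPM) all lie below the WT points, and Dolk the one whose knockout points (11.3 to 12.0 CPM) all lie above them.

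As a share of the reads of both mutases, Pmm1 supplied 19.3% in WT 1, 14.98% in WT 2, 15.7% in WT 3, 16.0% in WT 4 and 16.8% in WT 5. In Rbfox2 KO 1 to 3 the share was 9.09%, 11.4% and 9.05%. The lowest WT value, in WT 2, had a 95% Wilson interval of 13.1% to 17.1%. The highest knockout value, in Rbfox2 KO 2, had one of 9.47% to 13.7%. The intervals of these closest livers overlapped, which is not a test of their difference, and they cover counting error only. The mean share was 16.6 ± 1.66% for WT livers (SD, n = 5) against 9.85 ± 1.34% for the knockout (SD, n = 3). Per kilobase of principal transcript, the ratio of Pmm2 to Pmm1 CPM was 3.59 ± 0.398 for WT livers (SD, n = 5) against 6.54 ± 0.917 for the knockout (SD, n = 3). Per kilobase of all annotated exons the same ratios were 2.63 ± 0.292 and 4.805 ± 0.673. The share needs no library scaling, but Pmm1 enters it, so it too is a description.

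Among the 9 genes not chosen by value, 6 were lower and 3 higher in the knockout, and the median of their log2 fold changes lay 0.04 under the median over all tested genes. None passed an edgeR adjusted p of 0.05, and neither did any of the 14654 genes (0%), of which 694 had an unadjusted p under 0.05, while DESeq2 called 59. Each of the 9 had 0.99997 as its edgeR adjusted p. By an unadjusted edgeR p under 0.05, 0 of the 9 were lower and 1 was higher, where 2.33% of all genes were lower and 2.41% higher. The groups did not overlap for 0 of the 9 on the lower side and 1 on the higher side, against 1.82% and 1.89% of all genes. DESeq2 with an adjusted p under 0.05 called 0 of the 9 lower, against 0.253% of all genes.

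**Figure D2:**
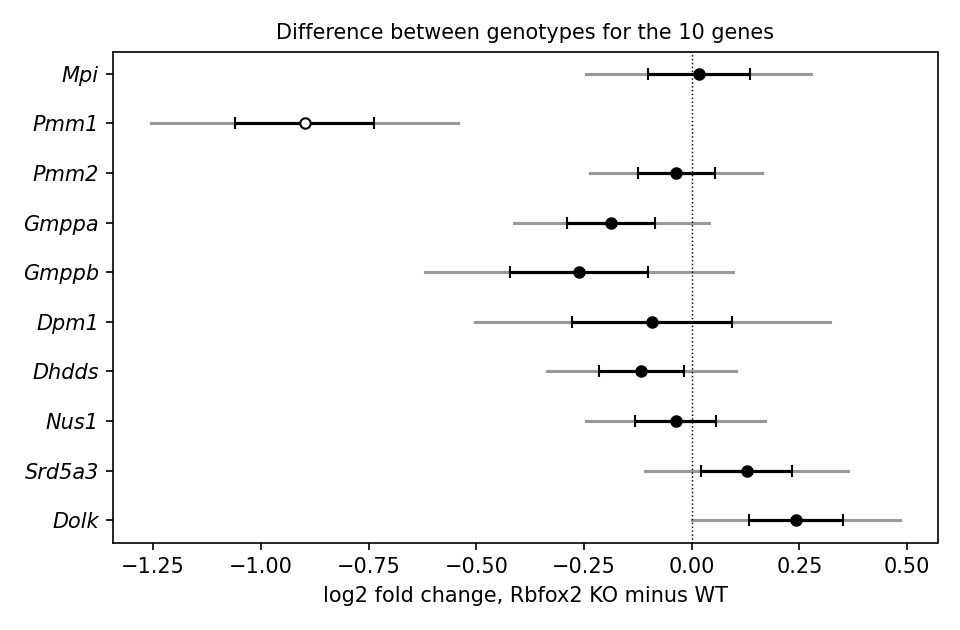
Log2 fold change of each gene, Rbfox2 KO minus WT (horizontal axis), from the edgeR fit, with black bars for ± 1 SE, grey lines for the 95% interval and a dotted line at 0. The open point is Pmm1, at -0.90, which was chosen for this difference, so its interval is not to be read as a test against 0. The other 9 lie between -0.26 (Gmppb) and 0.24 (Dolk).

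Mpi (ENSMUSG00000032306, chromosome 9, 57544256 to 57552763, minus strand), the isomerase that links fructose and mannose phosphates, averaged 7.96 ± 0.654 CPM in WT livers (SD, n = 5) against 8.07 ± 0.918 CPM in the knockout (SD, n = 3). Its values were 8.97, 7.47, 7.59, 7.51 and 8.28 CPM in WT 1 to 5 and 7.81, 9.08 and 7.30 CPM in Rbfox2 KO 1 to 3. The knockout livers spanned the WT range, and the log2 fold change was 0.02 ± 0.12 (SE), with a 95% interval of the fold from 0.844 to 1.21.

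Both subunits of the GDP-mannose pyrophosphorylase had lower means in the knockout, and neither passed the threshold. Gmppa (ENSMUSG00000033021, chromosome 1, 75435930 to 75443179, plus strand), the regulatory subunit, was at 12.8, 13.1, 15.3, 13.6 and 14.0 CPM in WT 1 to 5 and at 11.2, 11.7 and 13.3 CPM in Rbfox2 KO 1 to 3. Rbfox2 KO 1 and 2 lay below all WT livers and Rbfox2 KO 3 among them, and the log2 fold change was -0.19 ± 0.10 (SE), with a 95% interval of the fold from 0.751 to 1.03. Gmppb (ENSMUSG00000070284, chromosome 9, 108049242 to 108052801, plus strand), the catalytic subunit, was at 8.57, 8.66, 10.2, 10.1 and 6.80 CPM in WT 1 to 5 and at 6.90, 8.85 and 6.46 CPM in Rbfox2 KO 1 to 3. Its groups overlapped through WT 5 and Rbfox2 KO 2, and the log2 fold change was -0.26 ± 0.16 (SE), with a 95% interval of the fold from 0.652 to 1.07. It was -0.41 without Rbfox2 KO 2 and -0.17 without Rbfox2 KO 3. The Gmppb count is uncertain, since 33.6% of its exonic bases also belong to Rnf123, a ubiquitin ligase gene on the opposite strand, and whether counting used strand was not stated. Rnf123 itself averaged 32.3 ± 2.94 CPM in WT livers (SD, n = 5) against 29.8 ± 0.574 CPM in the knockout (SD, n = 3).

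Dpm1 (ENSMUSG00000078919, chromosome 2, 168209048 to 168230591, minus strand), the catalytic subunit of dolichol phosphate mannose synthase, had the fewest reads of the 10, 48 to 116 per library. It was at 2.95, 2.52, 2.81, 2.66 and 2.75 CPM in WT 1 to 5 and at 2.54, 1.89 and 3.24 CPM in Rbfox2 KO 1 to 3. The WT livers lay close together, and the knockout livers held both the lowest and the highest value. The log2 fold change of Dpm1 was -0.09 ± 0.19 (SE), with a 95% interval of the fold from 0.705 to 1.25. Of the 50-base stretches of its transcript, 37.7% also occur in Gm20716, an overlapping gene model on the same strand listed at 0 counts in all 8 libraries, so the Dpm1 count is uncertain.

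Of the dolichol genes, Dolk (ENSMUSG00000075419, chromosome 2, 30284231 to 30286334, minus strand), the kinase that makes dolichol phosphate, was the one whose groups did not overlap. Dolk was at 10.6, 9.99, 10.6, 9.93 and 8.19 CPM in WT 1 to 5 and at 11.3, 11.8 and 12.0 CPM in Rbfox2 KO 1 to 3. All 3 knockout livers lay above all 5 WT livers, with WT 5 lowest. The means were 9.87 ± 0.996 CPM (SD, n = 5) and 11.7 ± 0.375 CPM (SD, n = 3), a log2 fold change of 0.24 ± 0.11 (SE) with a 95% interval of the fold from 1.001 to 1.40. This did not pass the threshold after adjustment over all genes (edgeR adjusted p = 0.99997, unadjusted p = 0.0486). The unadjusted p of Dolk was 0.0607 with DESeq2 and 0.0446 with limma-voom, and its log2 fold change ran from 0.18 to 0.27 with any 1 library left out. With the sample number as a block it was 0.17 (unadjusted p of 0.184 in edgeR), where Srd5a3 also had 0.17.

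Neither gene of the chain-lengthening pair passed the threshold. Dhdds (ENSMUSG00000012117, chromosome 4, 133969028 to 134000918, minus strand), its catalytic subunit, was at 16.3, 13.6, 15.3, 13.6 and 14.0 CPM in WT 1 to 5 and at 14.2, 13.1 and 13.0 CPM in Rbfox2 KO 1 to 3. Rbfox2 KO 2 and 3 lay below every WT liver, and the log2 fold change was -0.12 ± 0.10 (SE), with a 95% interval of the fold from 0.792 to 1.07. Nus1 (ENSMUSG00000023068, chromosome 10, 52417547 to 52440183, plus strand), its partner subunit, was at 41.1, 43.2, 47.3, 49.8 and 45.1 CPM in WT 1 to 5 and at 40.8, 46.2 and 45.4 CPM in Rbfox2 KO 1 to 3. The groups overlapped, and the log2 fold change of Nus1 was -0.04 ± 0.09 (SE), with a 95% interval of the fold from 0.844 to 1.13. Srd5a3 (ENSMUSG00000029233, chromosome 5, 76140271 to 76155504, plus strand), the reductase of the pathway, was at 7.09, 7.24, 8.08, 8.21 and 7.78 CPM in WT 1 to 5 and at 9.13, 7.98 and 8.06 CPM in Rbfox2 KO 1 to 3. Only Rbfox2 KO 1 was above the WT range, and the log2 fold change of Srd5a3 was 0.13 ± 0.11 (SE), with a 95% interval of the fold from 0.927 to 1.29. Without Rbfox2 KO 1, the library with pancreatic transcripts, it was 0.06.

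Per kilobase of the principal transcript, the WT levels of the 10 genes ran from 17.3 CPM per kilobase for Pmm2 to 1.19 for Dpm1. Nus1 (9.84) and Gmppa (8.13) came after Pmm2, and their ranges over the WT livers overlapped. Pmm1 (4.86), Dolk (4.69), Dhdds (4.53), Mpi (4.47) and Srd5a3 (4.40) followed, each overlapping its neighbour in that order, and Gmppb was at 3.28. Per kilobase of all annotated exons the order changed, with Nus1 first, Pmm2 second and Pmm1 at rank 8, so the place of Pmm1 depends on the length used. Dpm1 was lowest on both scales, but its count and that of Gmppb are uncertain for the shared sequence described above, and so are their places. Among WT livers the coefficient of variation of CPM was 5.95% for Dpm1 to 15.6% for Gmppb, with 14.1% for Pmm1, against a median of 15.4% over all tested genes.

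The mevalonate pathway supplies the farnesyl pyrophosphate from which dolichol is made, and was measured as 7 genes. All 7 were lower in the knockout, with the median of their log2 fold changes 0.89 under the median over all genes, and in 5 of them the groups did not overlap, as in 1.82% of all genes on the lower side. None passed the edgeR threshold, 6 were lower at an unadjusted edgeR p under 0.05 (2.33% of all genes), and DESeq2 called 4 of them lower (0.253% of all genes). Mvd, the decarboxylase of the pathway, averaged 4.08 ± 0.843 CPM in WT livers (SD, n = 5) against 1.44 ± 0.287 CPM in the knockout (SD, n = 3), with a log2 fold change of -1.50 ± 0.23 (SE). Hmgcs1, the synthase that makes HMG-CoA, was at 139 ± 19.7 and 75.04 ± 14.3 CPM, a log2 fold change of -0.89 ± 0.16 (SE). The other genes called by DESeq2 were Idi1, the isomerase, with a log2 fold change of -1.07 ± 0.29 (SE), and Fdps, which makes farnesyl pyrophosphate itself, with -1.17 ± 0.22 (SE). The 4 dolichol genes, by contrast, had a median log2 fold change of 0.05, with 2 lower and 2 higher; the difference between the lists was not tested. The 9 genes of other routes that start from farnesyl or geranylgeranyl pyrophosphate had a median 0.10 under that over all genes, with 7 lower and 2 higher. The 2 of them with the smallest p were Fdft1, the squalene synthase, at 47.6 ± 4.25 CPM in WT and 36.9 ± 8.18 CPM in Rbfox2 KO (log2 fold change -0.37 ± 0.14, SE), and Pdss1, a subunit for ubiquinone side chains, with -0.51 ± 0.27 (SE).

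**Figure D3:**
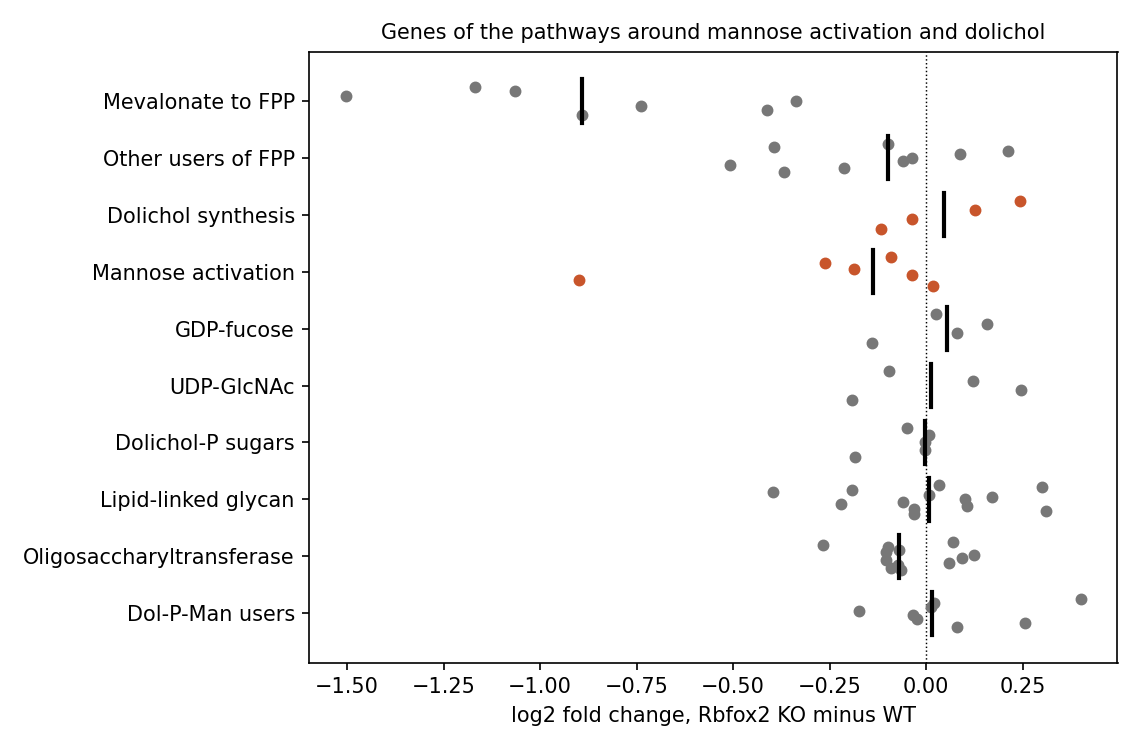
Log2 fold change of each gene, Rbfox2 KO minus WT (horizontal axis), in 10 gene lists, with the 10 mannose activation and dolichol genes in orange, other genes in grey and the list median as a black bar. FPP is farnesyl pyrophosphate and Dol-P-Man dolichol phosphate mannose. The list of other users of FPP includes later steps of routes that start from it. All 7 mevalonate genes lie left of 0 with a median of -0.89, the lone orange point far to the left is Pmm1 at -0.90, and the other lists centre between -0.14 and 0.05.

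Genes that use the products were measured as 4 lists of 38 tested genes, of which 21 were lower and 17 higher in the knockout. None of the 38 passed an adjusted p of 0.05 with edgeR or with DESeq2, and their median was 0.01 below that of all genes. At an unadjusted edgeR p under 0.05, 1 of the 38 was lower and 0 were higher, where 2.33% and 2.41% of all genes were. The groups did not overlap for 2 of the 38, both lower, where 1.82% of all genes were lower without overlap. The 5 genes that make or hand on dolichol phosphate sugars had a median within 0.01 of that of all genes. Dpm2, a regulatory subunit of the synthase that holds Dpm1, averaged 7.93 ± 0.830 CPM in WT livers (SD, n = 5) against 6.97 ± 0.246 CPM in the knockout (SD, n = 3), without overlap, with a log2 fold change of -0.19 ± 0.12 (SE). Dolpp1, which recycles dolichyl pyrophosphate, had -0.05 ± 0.12 (SE). The 13 genes that build the lipid-linked oligosaccharide had 6 lower and 7 higher. Alg2, a mannosyltransferase that spends GDP-mannose, was at 8.64, 9.02, 9.17, 9.51 and 8.07 CPM in WT 1 to 5 and at 8.001, 7.86 and 7.02 CPM in Rbfox2 KO 1 to 3, without overlap and with a log2 fold change of -0.22 ± 0.10 (SE). Alg13, part of the second N-acetylglucosamine transferase, was at 3.29 ± 0.289 CPM in WT and 4.08 ± 0.584 CPM in the knockout, a log2 fold change of 0.31 ± 0.15 (SE).

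Of the 12 oligosaccharyltransferase genes, whose products move the finished glycan onto proteins, 8 were lower and 4 higher, with a median 0.07 below that of all genes. Magt1, an oxidoreductase subunit, averaged 57.7 ± 6.51 CPM in WT livers (SD, n = 5) against 48.0 ± 5.39 CPM in the knockout (SD, n = 3). Its groups overlapped, and its log2 fold change of -0.27 ± 0.12 (SE) had an unadjusted edgeR p of 0.0436. Ddost had -0.10 ± 0.10 (SE). Of the 9 listed users of dolichol phosphate mannose, 8 passed the filter and Pigz did not, and 3 were lower and 5 higher. Pigx and Dpy19l3, which act in glycosylphosphatidylinositol anchors and in C-mannosylation, had log2 fold changes of 0.26 ± 0.13 and 0.40 ± 0.24 (SE).

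Sugar nucleotides made beside GDP-mannose were read as 2 lists of 4 genes. GDP-fucose is made from GDP-mannose by Gmds and Tsta3, or from free fucose by Fuk and Fpgt. These 4 genes had 1 lower and 3 higher. The log2 fold changes were 0.16 ± 0.13 (SE) for Fuk, 0.08 ± 0.10 (SE) for Tsta3 and -0.14 ± 0.25 (SE) for Gmds, the lower one. The 4 genes of UDP-N-acetylglucosamine had 2 lower and 2 higher. Gnpnat1, which acetylates glucosamine 6-phosphate, was at 52.0, 47.7, 57.1, 51.8 and 43.7 CPM in WT 1 to 5 and at 62.1, 58.2 and 59.2 CPM in Rbfox2 KO 1 to 3, without overlap. Its log2 fold change was 0.25 ± 0.10 (SE), and its edgeR adjusted p of 0.990 missed the threshold (unadjusted p = 0.0324). Gfpt1, which feeds this pathway from fructose 6-phosphate, had -0.19 ± 0.19 (SE).

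Within the WT group, Pmm1 did not order the livers as Rbfox2 and most mevalonate genes did. From highest to lowest Pmm1, the WT livers were 1, 4, 3, 2 and 5, and Rbfox2 ordered them in exactly the opposite way, from 13.96 CPM in WT 1 to 23.2 CPM in WT 5. Pmm1 had 179, 175, 179 and 188 reads in WT 2 to 5, so counting error alone could change the order of these livers. Between genotypes Pmm1 and Rbfox2 were both lower in the knockout. WT 1, highest in Pmm1, was the lowest WT liver for the mevalonate genes Hmgcs1 (112 CPM), Mvd (2.73 CPM), Idi1 (28.8 CPM) and Fdps (3.91 CPM), but the highest for Pmvk (16.2 CPM). The 7 mevalonate genes summed to 183 CPM in WT 1, to 238 to 281 CPM in WT 2 to 5, and to 108, 163 and 138 CPM in Rbfox2 KO 1 to 3. The libraries also differed in the levels of genes with long exonic length relative to short ones, for a reason that was not tested. In WT 1 the median log2 deviation from the mean of the 8 libraries was 0.32 lower for the genes of at least 6385 exonic bases than for those of at most 2288, in WT 5 it was 0.33 higher, and in the other 6 libraries the difference ran from -0.15 to 0.22. The part of this in the order of the WT livers was not tested, and with 5 livers no correlation is given.

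**Figure D4:**
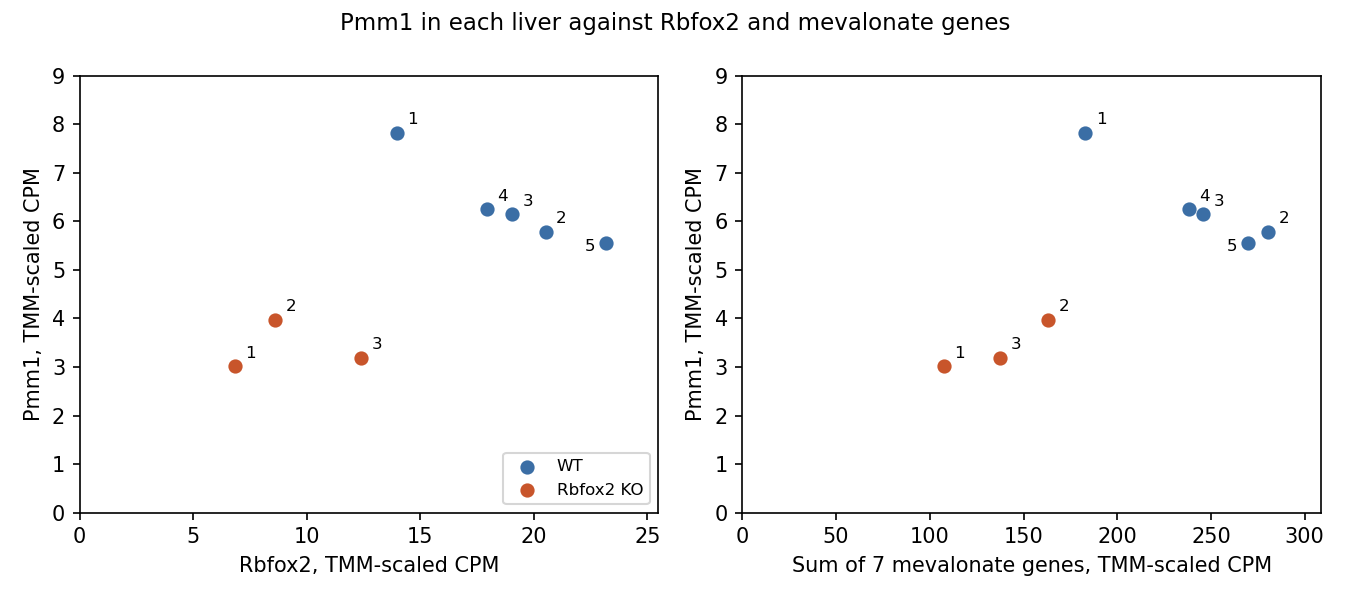
Pmm1 in TMM-scaled CPM (vertical axes) against Rbfox2 (left) and against the sum of 7 mevalonate genes (right), both in TMM-scaled CPM, for each WT liver (blue, numbered 1 to 5) and each Rbfox2 KO liver (orange, numbered 1 to 3). The knockout points lie lower left of the WT points, while among the WT points WT 1, with 7.83 CPM of Pmm1, 13.96 CPM of Rbfox2 and a sum of 183 CPM, lies upper left of the other WT livers.

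The genes whose log2 CPM over the 8 livers was most like that of Pmm1 were Gm21286 (Pearson r = 0.967), Fbxo36 (0.964), Mup-ps12 (0.956), Trmt9b (0.952) and Gsta3 (0.945), 2 of them pseudogenes. These values share the genotype difference for which Pmm1 was chosen, and the points share library and depth, so no p is given. With the mean of each genotype removed, the most alike were 2310009B15Rik (r = 0.973), Immt (0.972), Bfar (0.970), Cops7a (0.963) and Rassf7 (0.960), so that no gene was in both lists. None of the other 9 mannose and dolichol genes was in either. Each list holds only 5 of the 14654 tested genes, so such absences say little. With the genotype means removed, r with Pmm1 ran from -0.55 (Srd5a3) to 0.75 (Mpi) among these 9 genes.

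Pmm1 lies 4.64 Mb from the deleted gene, Rbfox2, on the same chromosome. Of the tested genes around Pmm1, Phf5a, Gm5805, Xrcc6 and Desi1 had overlapping groups and log2 fold changes of 0.08, -0.07, -0.06 and 0.00, with unadjusted edgeR p values of 0.569, 0.794, 0.535 and 0.988. Counts per gene do not separate the transcripts of Pmm1, of which 11 are annotated, so its isoforms were not analysed here.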

How the data were processed

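Liver RNA of 8 mice was enriched for poly(A) and sequenced from both ends. Alignment by the authors used TopHat2 2.0.11, GRCm38 and a strand-specific setting, and they deposited raw read counts per Ensembl gene from featureCounts; how counting treated strand and reads with several alignments is not given in the sources used here. Symbols and lengths came from GENCODE release M21, which named 45229 of the 46078 genes, and promoter windows from RefSeq.

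Groups and numbers were taken from the sample labels, and 0 sample columns were left without a sample. Nothing in the labels says more of the mice than their number, so p-values measure the spread between these samples. No pair within a group agreed within sampling noise (chi-square per degree of freedom 44.6 to 344). After filterByExpr, 14654 genes entered edgeR 4.0.16 (R 4.3.3), with TMM factors, a robust quasi-likelihood fit of genotype alone and p-values adjusted by Benjamini-Hochberg (threshold 0.05). The SE was the log2 fold change over the square root of F, and 95% intervals used the degrees of freedom of that test. The procedure was tested on simulated counts.

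The 10 genes, the pathway and marker lists and the tests were chosen with earlier results of these data known. Named genes were the 10, Rbfox2, the 2 of each list with the smallest unadjusted edgeR p, list genes called by DESeq2, and the 5 genes most like Pmm1 by each measure. Neighbours and overlapping genes of the 10, Pmvk, Gmds, Fpgt, Krt7, Krt19, Sox9, Epcam, Spp1, Dcn and Col1a1 were named after their values were seen. Some genes of the lists and neighbourhood are not reported here on their own. Alternatives were DESeq2 1.42.0, its size factors, library totals, limma-voom (limma 3.58.1), no filter, at least 1 CPM in 3 samples, the sample number as a block, and each sample left out. Same-numbered samples of both groups had correlations of deviations from the group means of 0.163, 0.0484 and 0.170, so the numbers were not taken as pairs.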

Additional observations from a re-analysis of the deposited data

Results flagged for a closer look

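Pmm2 in WT 5 stood apart from the other WT livers, at 27.6 CPM against 32.7 to 33.0 CPM in WT 1 to 4. Its gap to the nearest liver was 0.961 of the WT range, over Dixon's 95% critical value of 0.71 for 5 samples. The 10 genes were tested this way, and chance alone would flag 0.5 of 10. The flag depends on the TMM scaling. WT 5 had 934 Pmm2 reads of 29928673 total counts and a TMM factor of 1.13. WT 3 had 938 reads of 34680661 and a factor of 0.821, so by total counts alone WT 3 was lower in Pmm2 than WT 5. WT 5 was also the lowest WT liver for Pmm1 (5.56 CPM), Gmppb (6.80 CPM) and Dolk (8.19 CPM), and its sum of skeletal muscle markers was 320 CPM, the highest of the 8 libraries. Without WT 5 the log2 fold change of Pmm1 was -0.94.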

How the results depend on the processing

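The log2 fold change of Pmm1 was -0.96 to -0.80 under the alternatives and, with 1 library left out, -1.03 to -0.82. Pmm1 was chosen for its lower level in these same libraries, so its direction was largely fixed in advance and this is no test. edgeR called 0 genes. DESeq2 called 59 genes and 1 of the 10, the gene chosen for its value in this comparison, from which nothing is read, and edgeR without a filter on low counts called 6 genes. Leaving out any 1 library left 0 genes and 0 of the 10 called by edgeR. Scaling by library totals put the all-gene median at 0.12, and 4 of the 10 then changed sign, Pmm2 (0.0821), Dpm1 (0.0185), Dhdds (0.00941) and Nus1 (0.0689); relative to that median they stayed below it. A replicate block on the sample number called 0 genes, with unadjusted p under 0.05 for 739 genes where the fit without it had 694. It put Pmm1 at -0.96 and Nus1 at 0.00944, and changed no other direction among the 10. None of WT 1 to 3 correlated best with the knockout liver of its own number. Of the knockout livers, Rbfox2 KO 1 alone correlated best with the WT liver of its own number, among WT 1 to 3. With 1 library left out, Mpi ran from -0.0765 to 0.0833, changing sign without Rbfox2 KO 2, WT 2, WT 3 or WT 4, Dpm1 from -0.302 to 0.0802, changing sign without Rbfox2 KO 2, and Nus1 from -0.0751 to 0.0109, changing sign without Rbfox2 KO 1. The cause of these changes was not tested. Of 150 values of single genes under alternatives, 138 kept direction and side of the threshold, 11 changed sign and 1, Rbfox2 with DESeq2 (-1.03), passed the threshold. Of 150 list medians, 144 moved by less than the spread between replicates and 6 by more. Differences within the intervals given were not detectable with 5 and 3 livers at this depth.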
